A study of Lolium multiflorum with 4 samples.

Results

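The 63 contigs described here met a rule for a rise in LmHC without a matching rise in LmLC, 2 seed stocks of Lolium multiflorum (Italian ryegrass), a forage grass. They were chosen from their own FPKM values (a transcript level corrected for contig length and for the number of mapped fragments in the library): a mean of at least 2 FPKM over the 4 libraries, a log2 ratio of (FPKM + 1) at 24 h over 0 h of at least 1.5 in LmHC, and a ratio within 0.5 on either side of 0 both for the change in LmLC and for LmHC against LmLC at 0 h. Of 111761 contigs in the table, 49845 reached the mean level and 63 of these (0.126%) met every condition. The rule used all 4 values of each contig, so the levels, changes and counts of the 63 contigs are a description. Only the other contigs of their assembly clusters carry values that the rule did not use.

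The HC of LmHC stands for high and the LC of LmLC for low cadmium. Both were taken as plant lines, since the growth protocol speaks of seeds of each. The sample labels give High Cadmium and Low Cadmium as a treatment instead, and do not say whether the words refer to uptake or to tolerance. One library was made from each line before treatment (0 h) and one after 24 h with 300 µM cadmium chloride. All 4 groups were seedlings in Hoagland solution. The tissue and the number of seedlings per library are not stated, and the contigs carry no gene names with which a tissue could be checked. With 1 library per group no value has a replicate error and no test was possible, so every difference below compares single libraries, and the words higher and lower describe those libraries. A difference between the lines cannot be told apart from one between the plants or the library preparations, nor, in bulk tissue, more RNA per cell from more cells of a type. No untreated library at 24 h was analysed here, so that cadmium and elapsed time cannot be told apart.

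Cadmium is a toxic metal that enters plant roots through carriers for essential metals such as iron, zinc and manganese. Plant cells are known to bind it with thiol peptides, the phytochelatins, to store it in vacuoles through tonoplast transporters, and to raise genes of sulfur metabolism and oxidative stress defence. Stocks of a species can differ in these responses, and the series was designed to look for cadmium transporters that differ between LmHC and LmLC. The deposited table pairs no contig with a gene or a sequence, so none of the 63 contigs can be given a function. Contigs whose names begin with CL share a numbered cluster of similar assembled transcripts, which can be alleles, splice forms or gene copies. Names that begin with Unigene stand alone.

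A rise in LmHC was common, and a change within 0.5 in LmLC beside it was rare. In LmHC, 10553 of the 49845 contigs (21.2%) had a log2 ratio of at least 1.5. In LmLC, 10772 (21.6%) did. Of the 10553 contigs, 8898 (84.3%) also reached 1.5 in LmLC, 150 stayed within 0.5 in LmLC, and 63 of those 150 were also alike in the 2 lines at 0 h. Most of the 87 contigs lost at that last condition differed one way: 80 were higher in LmLC at 0 h and 7 were higher in LmHC. The LmHC level at 0 h was also the base of the rise that chose these contigs, so nothing is read from that split. Over all contigs outside the window at 0 h the split was not counted. The same rule with the lines exchanged returned 308 contigs (0.618%), 4.889 times as many. Of the 601 contigs that reached 1.5 in LmLC and stayed within 0.5 in LmHC, 293 fell outside the window at 0 h, 206 of them with the higher level in LmLC and 87 with the higher level in LmHC.

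**Figure D1:**
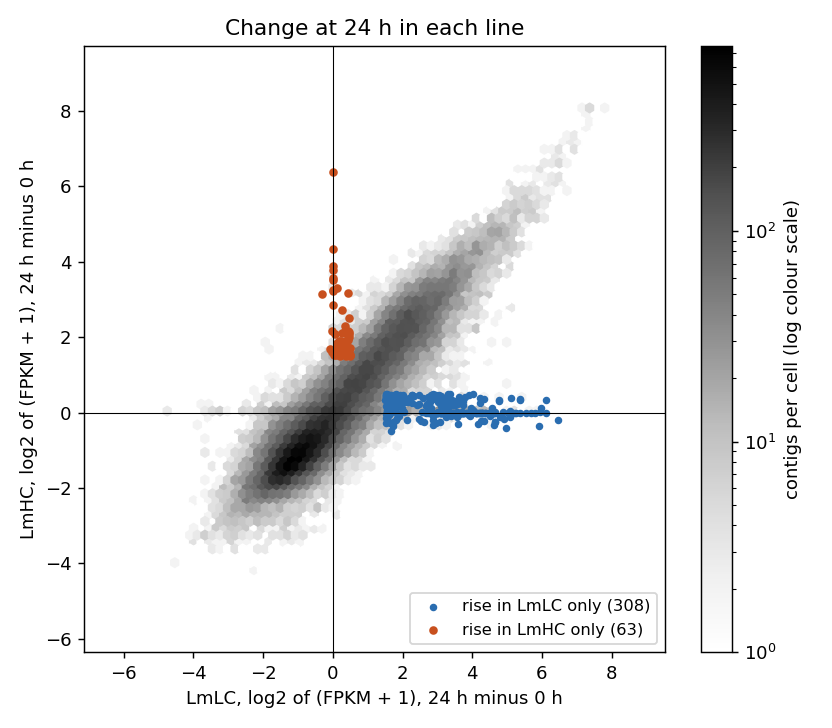
Change from 0 h to 24 h of each contig with a mean of at least 2 FPKM, as log2 of (FPKM + 1), in LmLC (horizontal) and LmHC (vertical). Grey cells hold numbers of contigs on a log colour scale, orange points are the 63 contigs that met the rule in LmHC and blue points the 308 that met it with the lines exchanged; most orange points lie just above 1.5, while the blue points reach farther along their axis.

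The 63 contigs were mostly low in every library but LmHC at 24 h. Their median level was 1.03 FPKM in LmHC at 0 h, 7.50 FPKM in LmHC at 24 h, 1.36 FPKM in LmLC at 0 h and 1.72 FPKM in LmLC at 24 h. Single contigs ranged up to 6.89 FPKM in LmHC before treatment and from 4.56 to 82.82 FPKM after it. In LmLC they ranged up to 9.36 FPKM before treatment and up to 9.75 FPKM after it. In each of the 63, LmHC at 24 h was the highest of the 4 libraries, and 16 reached 10 FPKM there. By contrast, the median contig among the 49845 had 5.15 FPKM in LmHC at 0 h and 5.19 FPKM at 24 h. A mean between 2 and 3 FPKM was found for 39 of the 63 contigs (61.9%) and for 22.7% of the 49845. A mean of 10 FPKM or more was found for 4 of the 63 (6.35%) and for 30.2% of the 49845. Summed over the 63 contigs, the level was 88.18 FPKM in LmHC at 0 h and 623.2 FPKM in LmHC at 24 h, against 109.89 and 147.19 FPKM in LmLC. One contig, Unigene35023_All, supplied 82.82 of the 623.2 FPKM, and without it the sum in LmHC at 24 h was 540.38 FPKM.

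The change in LmHC was close to the limit for most contigs. The log2 ratio lay between 1.5 and 2 for 40 contigs, reached 2 for 23 and reached 3 for 11, with a median of 1.78. In LmLC the median log2 ratio was 0.25. It was above 0 for 51 of the 63 contigs (81.0%), 0 for 8 and below 0 for 4, and it reached 0.4 for 19. Among all 49845 contigs, the ratio in LmLC was above 0 for 44.1%, and among those within the same window of 0.5 it was above 0 for 41.9%. The term LmHC only therefore holds in the sense of the limits, since most of these contigs were also slightly higher at 24 h in LmLC. At 0 h, LmLC had the higher level in 39 of the 63 (61.9%), LmHC in 13, and 11 were equal. Among the 38989 contigs within the same window at 0 h, LmLC was higher in 45.6%. The LmHC level at 0 h is also the base of the rise that the rule asked for, so nothing is read from that difference. Between the lines at 24 h, 51 of the 63 had a log2 ratio of at least 1 toward LmHC, a size seen in 3.63% of the 49845, and 12 were not. The rule used these same values, so nothing is read from that count.

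The set was made up of 3 kinds of contig. Listed at 0 in the other 3 libraries were 8 contigs. Listed at 0 in LmHC at 0 h, but above 0 in an LmLC library, were 3. The remaining 52 (82.5%) were above 0 in all 4 libraries.

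The 8 contigs seen in LmHC at 24 h alone included the 6 with the largest log2 ratio of the set. Unigene35023_All had 82.82 FPKM in LmHC at 24 h. CL4549.Contig1_All had 19.11 FPKM and CL4549.Contig2_All 13.76 FPKM, and these were the only contigs of their cluster, so the whole of cluster CL4549 was seen in that library alone. Unigene33531_All had 12.87 FPKM, CL3772.Contig1_All 10.98 FPKM and Unigene33288_All 10.48 FPKM. The other two, Unigene31951_All and Unigene34444_All, had 8.56 and 8.33 FPKM. All 8 were listed at 0 in LmHC at 0 h and in both LmLC libraries, so no fold is given. Contigs seen in 1 library alone occurred elsewhere too. With the same mean of at least 2 FPKM, 60 contigs were above 0 in LmLC at 24 h alone, with up to 69.12 FPKM, 13 in LmLC at 0 h alone, with up to 82.08 FPKM, and 0 in LmHC at 0 h alone.

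In 3 contigs the level in LmHC went from a listed 0 to between 7.93 and 8.82 FPKM while LmLC held traces. CL2206.Contig2_All had 8.82 FPKM in LmHC at 24 h, was listed at 0 in LmLC at 0 h and had 0.08 FPKM in LmLC at 24 h. CL1156.Contig2_All had 7.94 FPKM in LmHC at 24 h, was listed at 0 in LmLC at 0 h and had 0.36 FPKM at 24 h. CL3937.Contig4_All had 7.93 FPKM in LmHC at 24 h, 0.25 FPKM in LmLC at 0 h and was listed at 0 in LmLC at 24 h.

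Among the 52 contigs above 0 in every library, the plain ratio of FPKM at 24 h over 0 h was 3.41 to 22.5 in LmHC, with a median of 5.02, and 0.926 to 5.40 in LmLC, with a median of 1.39. The LmHC ratio was the larger in all 52. In LmLC, 19 contigs had a plain ratio of at least 1.5 and 2 of at least 2, which the added 1 FPKM hid in contigs of low level. Of the 52, 4 stayed under 1 FPKM in the other 3 libraries. CL4242.Contig2_All went from 0.41 to 9.21 FPKM in LmHC and from 0.14 to 0.15 FPKM in LmLC, the largest plain ratio in LmHC. Unigene32826_All went from 0.39 to 8.24 FPKM in LmHC and from 0.05 to 0.27 FPKM in LmLC. The latter is the largest plain ratio of the set in LmLC, 5.40, at levels far under 1 FPKM.

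Of the 10 highest contigs in LmHC at 24 h, 6 were above 0 FPKM in all 4 libraries. CL10739.Contig2_All had 6.01 FPKM at 0 h and 25.85 FPKM at 24 h in LmHC, and 6.93 and 9.68 FPKM in LmLC. CL15054.Contig2_All had 6.89 and 24.28 FPKM in LmHC, and 9.36 and 9.75 FPKM in LmLC. These 2 contigs differed in LmLC, where the first was higher at 24 h by a log2 ratio of 0.43 and the second by 0.05. CL3423.Contig15_All had 5.52 and 18.89 FPKM in LmHC, and 6.68 and 9.58 FPKM in LmLC. Unigene9417_All had 4.65 and 16.97 FPKM in LmHC, and 6.86 and 9.07 FPKM in LmLC, and CL11858.Contig1_All had 2.93 and 16.17 FPKM in LmHC, and 3.27 and 4.86 FPKM in LmLC. Unigene47921_All completed the 10 highest with 3.49 and 12.50 FPKM in LmHC, and 4.81 and 6.77 FPKM in LmLC. Except CL15054.Contig2_All, these contigs had a log2 ratio in LmLC between 0.36 and 0.46, in the upper part of the window that the rule allowed.

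**Figure D2:**
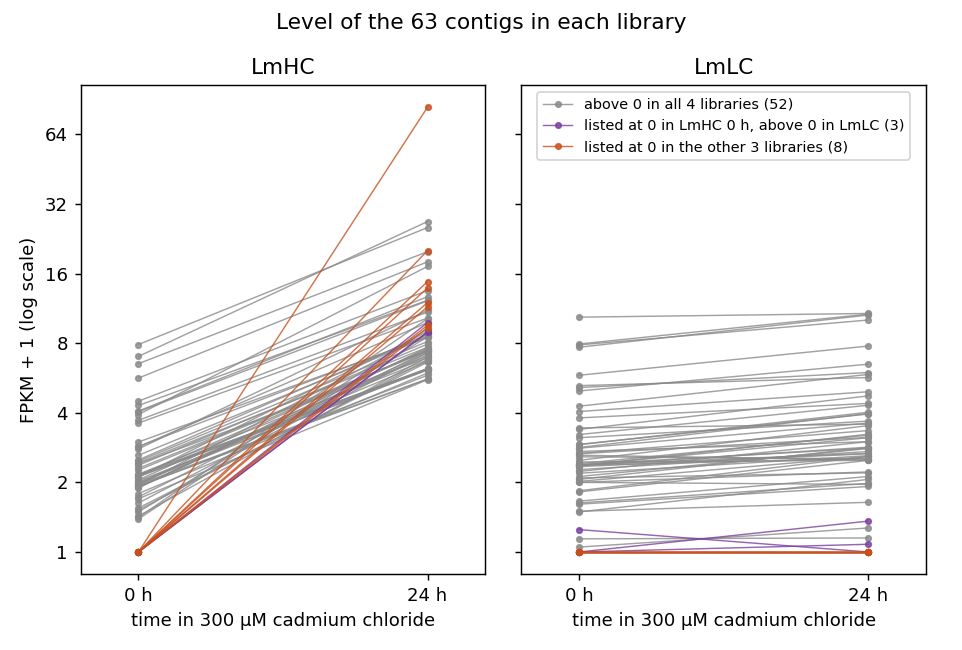
FPKM + 1 on a log scale at 0 h and 24 h in LmHC (left) and LmLC (right), 1 line per contig, coloured by whether the contig was listed at 0 elsewhere. In LmHC at 24 h the contigs lie between 4.56 and 82.82 FPKM, and in LmLC no contig exceeds 9.75 FPKM at either time.

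The limit of 1.5 cut through a continuous range. The members just inside it were Unigene21354_All with a log2 ratio in LmHC of 1.502, Unigene21171_All with 1.508 and CL13793.Contig1_All with 1.512. Just outside were Unigene11212_All with 1.497, and Unigene22006_All and CL378.Contig1_All with 1.492 each. Unigene11212_All, outside, went from 1.87 to 7.10 FPKM in LmHC and from 1.38 to 1.45 FPKM in LmLC, while Unigene21171_All, inside, went from 2.61 to 9.27 FPKM in LmHC and from 3.97 to 5.49 FPKM in LmLC. The windows for LmLC and for 0 h were met by 7486 contigs, of which 234 had a log2 ratio in LmHC between 1 and 1.5 and 22 between 1.4 and 1.5, against 16 of the 63 between 1.5 and 1.6.

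The contigs of the exchanged rule had another profile. Of those 308, 126 (40.9%) were above 0 in all 4 libraries, against 52 of the 63 (82.5%). Listed at 0 in both LmHC libraries were 113 of the 308 (36.7%), whereas 8 of the 63 (12.7%) were listed at 0 in both LmLC libraries. Above 0 at 0 h were 47919 of all 49845 contigs in LmHC and 48494 in LmLC. A listed 0 at 0 h was thus more frequent in LmHC over all contigs too. The other shares were not counted over all contigs, so nothing is read from these differences between the sets. The median level of the 308 in LmLC at 24 h was 11.47 FPKM, against 7.50 FPKM for the 63 in LmHC at 24 h. Among those above 0 everywhere the profiles were closer: the median plain ratio was 5.14 in LmLC and 1.33 in LmHC for the 126 contigs, beside 5.02 in LmHC and 1.39 in LmLC for the 52. Falls did not show the imbalance of 308 to 63. With the sign of the change turned, 63 contigs were lower in LmHC only (0.126%) and 70 in LmLC only (0.14%).

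In clusters, the other contigs were often higher at 24 h in both lines. Of the 63 contigs, 35 (55.6%) belonged to 33 clusters and 28 stood alone. Among the 49845 contigs 66.0% were clustered, and among the 308 of the exchanged rule 51.0%. The 33 clusters held 2 to 30 contigs, with a median of 4, and 2 clusters, CL4549 and CL3423, held 2 of the 63 each. The clusters contained 175 further contigs, termed partners below, of which 92 had a mean of at least 2 FPKM and 83 did not. These 92 lay in 25 clusters, unevenly, with 13 in CL3423 and 9 in CL1156. Fragments that fit several contigs of a cluster are divided among them by the quantification, so a partner's value is not independent of that of its neighbour in the set, and partners of 1 cluster are not replicates.

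Of the 92 partners, 57 (62.0%) passed 2-fold upward at 24 h in LmHC on the log2(FPKM + 1) scale, against 27.4% of all 49845 contigs. In LmLC, 50 of the 92 (54.3%) did, against 28.2%. Both lines passed 2-fold for 45 partners, LmHC alone for 12, LmLC alone for 5 and neither for 30, that is 48.9%, 13.0%, 5.43% and 32.6% of the partners. Among all 49845 contigs these shares were 23.8%, 3.59%, 4.4% and 68.2%. At least 2-fold lower at 24 h were 6 partners in LmHC (6.52%), against 30.9% of all contigs, and 12 in LmLC (13.0%), against 27.8%. None of the 92 met the exchanged rule, against 0.618% of all contigs, and 0 moved at least 2-fold in opposite directions in the lines. The share of opposite moves over all contigs was not counted, so nothing is read from these absences. The change was the larger in LmHC for 69 of the 92 partners (75.0%) and the larger in LmLC for 23. Of all 49845 contigs, 46.6% had the larger change in LmHC. The median difference, LmHC minus LmLC, was 0.41. It reached 1 toward LmHC for 15 partners (16.3%), against 5.25% of all contigs, and toward LmLC for 4 (4.35%), against 6.38%.

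Summing the partners of a cluster gives each cluster 1 value. In 25 clusters this sum averaged 2 FPKM or more. At 24 h it had passed 2-fold upward in 18 clusters in LmHC (72.0%) and in 13 in LmLC (52.0%). For comparison, the sum of the other contigs in its cluster was taken for each clustered contig of the table with such a sum. That sum passed 2-fold upward for 26.7% in LmHC and for 27.6% in LmLC. Where the contig itself had a log2 ratio of at least 1.5 in LmHC, whatever it did in LmLC, the shares were 80.7% in LmHC and 81.0% in LmLC. Counted the same way, with the other contig of the set included, they were 75.0% and 46.4% for 28 of the 35 clustered contigs of the set. The partner sum passed 2-fold in both lines in 12 clusters, in LmHC alone in 6, in LmLC alone in 1 and in neither in 6. Its median log2 ratio was 1.43 in LmHC and 1.02 in LmLC, beside 1.78 and 0.25 for the 63 contigs. The rule bounded the values of the 63, of which 28 stood alone, so nothing is read from that contrast. The ratio of the partner sum was the larger in LmHC in 21 of the 25 clusters, and in LmLC in CL10823, CL15204, CL2206 and CL9289. Taken contig by contig, the sum of the other contigs had the larger ratio in LmHC for 24 of the 28 contigs of the set (85.7%), for 44.2% of all clustered contigs with such a sum, and for 52.5% of those with a log2 ratio of at least 1.5 in LmHC. In CL4549 that sum was only the other contig of the set, and in CL3423 it contained that contig. The rule used those values, which also enter the 75.0% and 46.4%. The 21 of 25 clusters leaves them out. None of the 25 sums met the limits set for single contigs, that is 1.5 in LmHC with LmLC within 0.5. Of the 49845 single contigs, 150 met those limits. Contigs that met the full rule were left out of the sums, and the share over all cluster sums was not counted. Nothing is therefore read from that absence.

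For the 308 contigs of the exchanged rule, 121 partner sums were available. Of these, 67.8% passed 2-fold upward in LmHC and 80.2% did so in LmLC, and the change was larger in LmLC in 83 and in LmHC in 38. In both sets, then, partner sums past 2-fold in both lines were the largest class, with 12 of 25 here and 78 of 121 there. Whether the sets differ was not tested.

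**Figure D3:**
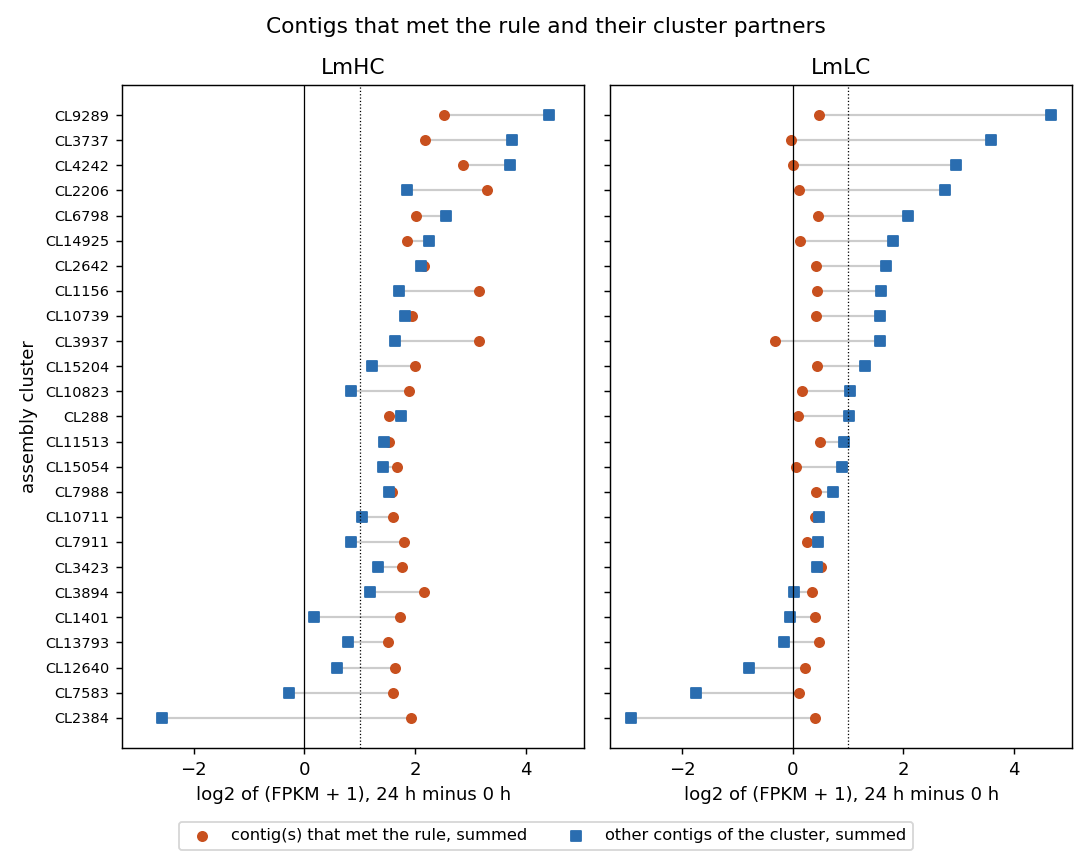
Log2 ratio of (FPKM + 1) at 24 h over 0 h in LmHC (left) and LmLC (right) for the 25 clusters with a partner sum of at least 2 FPKM on average. Circles are the summed contigs that met the rule and squares the summed other contigs of the same cluster; the dotted line marks 2-fold, which the squares reach in 18 clusters in LmHC and 13 in LmLC.

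The clusters fell into several arrangements. The first, with 12 clusters, had partners at least 2-fold higher in both lines beside a contig whose log2 ratio in LmLC was held within 0.5 by the rule. In CL3737 the 6 partners summed to 77.6 FPKM at 0 h and 1060 FPKM at 24 h in LmHC, and to 96.2 and 1168 FPKM in LmLC. CL3737.Contig4_All, the contig of the set, went from 0.94 to 7.77 FPKM in LmHC and from 1.58 to 1.53 FPKM in LmLC, and held 0.727% of its cluster in LmHC at 24 h. In CL9289 the partners summed to 3.95 and 104.4 FPKM in LmHC and to 3.11 and 104.1 FPKM in LmLC, while CL9289.Contig1_All went from 0.49 to 7.52 FPKM and from 0.49 to 1.06 FPKM. In CL4242 the partner sums were 7.23 and 106.3 FPKM in LmHC and 11.48 and 95.72 FPKM in LmLC. CL10739 had contigs of like level: its partners summed to 5.45 and 21.63 FPKM in LmHC and to 4.10 and 14.31 FPKM in LmLC, so that CL10739.Contig2_All held 52.4% and 54.4% of the cluster in LmHC but 62.8% and 40.4% in LmLC. In these clusters the transcripts as a group were higher at 24 h in both lines.

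In the second arrangement, with 6 clusters, the partner sum passed 2-fold in LmHC alone. CL3423 is the largest of these, with 21 contigs. Its partners summed to 49.1 FPKM at 0 h and 124.8 FPKM at 24 h in LmHC, and to 54.4 and 73.95 FPKM in LmLC, log2 ratios of 1.33 and 0.44. Its second contig of the set, CL3423.Contig17_All, went from 1.47 to 7.13 FPKM in LmHC and from 1.91 to 3.02 FPKM in LmLC. Within the cluster CL3423.Contig8_All went from 2.49 to 16.31 FPKM in LmHC and from 3.14 to 7.41 FPKM in LmLC, whereas CL3423.Contig9_All was lower at 24 h in both, from 17.58 to 10.94 FPKM and from 19.78 to 6.99 FPKM. CL3894 showed the widest gap between the lines, with partner sums of 10.45 and 25.08 FPKM in LmHC and of 10.05 and 10.28 FPKM in LmLC. CL7988, CL10711, CL11513 and CL15054 made up the rest, with log2 ratios of the partner sums between 1.03 and 1.53 in LmHC and between 0.48 and 0.94 in LmLC. In these 4 clusters both lines were thus higher at 24 h, with LmLC short of 2-fold.

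In the third arrangement, with 6 clusters, the partner sum passed 2-fold upward in neither line. CL7583 and CL12640 had partners that were lower in LmLC at 24 h. In CL7583 the partners summed to 34.48 and 28.18 FPKM in LmHC and to 47.2 and 13.29 FPKM in LmLC, while CL7583.Contig4_All went from 3.04 to 11.19 FPKM in LmHC and from 4.24 to 4.68 FPKM in LmLC. In CL12640 the partners summed to 17.31 and 26.48 FPKM in LmHC and to 23.25 and 13.04 FPKM in LmLC, and CL12640.Contig1_All went from 3.07 to 11.70 FPKM and from 4.14 to 4.97 FPKM. In both clusters every contig with a mean of at least 2 FPKM had a higher log2 ratio in LmHC than in LmLC. In CL2384 the partners were lower at 24 h in both lines, with sums of 74.54 and 11.7 FPKM in LmHC and of 55.78 and 6.51 FPKM in LmLC. CL2384.Contig1_All went the other way, from 0.91 to 6.29 FPKM in LmHC and from 1.41 to 2.2 FPKM in LmLC, and its share of the cluster went from 1.21% to 35.0% in LmHC and from 2.46% to 25.3% in LmLC. The others of this arrangement were CL1401, CL7911 and CL13793. In CL13793 the single partner with a mean of at least 2 FPKM, CL13793.Contig2_All, went from 2.68 to 5.36 FPKM in LmHC and from 2.31 to 1.98 FPKM in LmLC.

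One cluster, CL10823, had a partner sum past 2-fold in LmLC alone, by log2 ratios of 0.84 in LmHC and 1.04 in LmLC. Of the partners of at least 2 FPKM, 2 were listed at 0 in both LmHC libraries, and 0 were listed at 0 in both LmLC libraries. Those shares were not counted over all contigs, so nothing is read from the 2 and the 0. CL15054.Contig4_All had 1.08 FPKM at 0 h and 7.97 FPKM at 24 h in LmLC, beside the near-flat 9.36 and 9.75 FPKM of CL15054.Contig2_All. CL4242.Contig1_All had 1.39 and 9.67 FPKM in LmLC, beside 0.14 and 0.15 FPKM of CL4242.Contig2_All. In these 2 clusters the contig of the set was higher in LmHC alone, and another contig of the cluster was seen and was higher at 24 h in LmLC alone. In CL3772, CL3772.Contig1_All was seen in LmHC at 24 h alone, while its partner was seen in both lines. That partner had 0.61 and 0.63 FPKM in LmHC and 0.99 and 3.23 FPKM in LmLC. Partners with a mean under 2 FPKM went either way. CL3937.Contig8_All had 0 and 0.06 FPKM in LmHC and 0.10 and 7.54 FPKM in LmLC, and CL9289.Contig3_All 0 and 0.11 FPKM and 0.21 and 6.45 FPKM. By contrast, CL1401.Contig1_All had 0.32 and 4.12 FPKM in LmHC and 0.33 and 0 FPKM in LmLC. These clusters were singled out after their values were seen.

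A single partner with a mean of at least 2 FPKM was found in 3 clusters, CL13793 among them. CL14925.Contig1_All, the partner of CL14925.Contig3_All, went from 0.24 to 5.6 FPKM in LmHC and from 0.57 to 4.23 FPKM in LmLC, while CL14925.Contig3_All went from 0.97 to 6.11 FPKM and from 0.50 to 0.64 FPKM. CL11513.Contig1_All went from 3.96 to 12.41 FPKM in LmHC and from 4.78 to 11.01 FPKM in LmLC, and CL11513.Contig3_All beside it from 1.12 to 5.12 FPKM and from 1.49 to 2.52 FPKM. Both of these partners were higher at 24 h by more than 2-fold in LmLC, where the contig of the set was not.

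**Figure D4:**
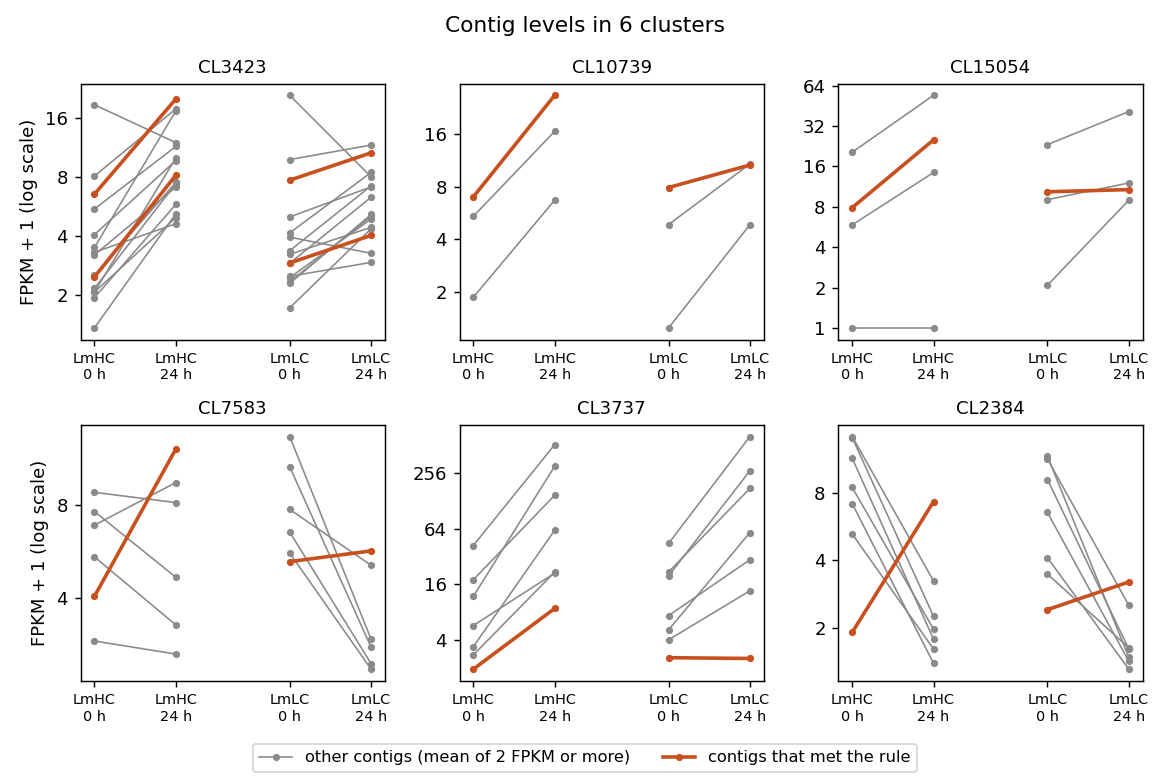
FPKM + 1 on a log scale in the 4 libraries for 6 clusters, with the contigs that met the rule in orange and the other contigs of at least 2 FPKM on average in grey. Partners are higher at 24 h in both lines in CL3737, are lower in both in CL2384, and in CL7583 reach a sum of 28.18 FPKM in LmHC but 13.29 FPKM in LmLC at 24 h; CL7583, CL3737 and CL2384 were picked after their values were seen.

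Within the clusters, the 35 contigs took a larger share of their cluster's FPKM in LmHC at 24 h. The median share over the clusters was 15.7% in LmHC at 0 h and 28.4% at 24 h, and 15.0% and 15.2% in LmLC. The share was higher at 24 h in 26 of 32 clusters in LmHC, and in LmLC it was higher in 12, lower in 19 and equal in 1. Because the rule fixed the members' changes, this is a description. Summed with their partners, 28 of the 33 clusters passed 2-fold upward in LmHC and 12 did so in LmLC. These sums contain the contigs that the rule chose, and 8 of the 33 clusters had no partner with a mean of at least 2 FPKM. The same share over all clusters was not counted, so nothing is read from the 28 and the 12. Of the 33 whole clusters, 4 had a log2 ratio of at least 1.5 in LmHC with LmLC within 0.5 (CL4549, CL68, CL12041 and CL658), and none of these 4 had a partner with a mean of at least 2 FPKM. That share was not counted over all clusters either, so nothing is read from the 4.

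The libraries as a whole were alike in total, from 782476 to 795368 FPKM. Their absolute depth is unknown, because the files hold no fragment counts and no contig lengths. From the most frequent ratio of low values, the 24 h library had an estimated depth relative to its 0 h library of 0.956 in LmHC and 0.920 in LmLC, and LmHC relative to LmLC had 0.986 at 0 h and 1.03 at 24 h. No counting interval can be given, and a contig listed at 0 may still be present.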

How the data were processed

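RNA of 4 libraries, 1 per group, was measured by sequencing of polyadenylated RNA. The authors deposited 1 table of FPKM values rounded to 2 decimals. Tools named per the submitters' processing notes are Bowtie2 (2.2.5) with RSEM (1.2.8); for the assembler, contig lengths and filters, details were not given in the sources used here. RSEM estimates how fragments that fit several contigs are shared.

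The rule and the lists were chosen with earlier results of these data known. Ratios were log2 of (FPKM + 1), which understates the change of low contigs; partners were called at a log2 ratio of 1. There was no test, with 1 library per group. Contigs named are the 10 highest in LmHC at 24 h, the 6 with the largest change, the 3 on either side of the limit, and the 6 clusters with most members or highest members; clusters with 1 partner of at least 2 FPKM numbered 3, so the planned list of 6 was not filled. Further names were chosen after their values were seen. Depth was estimated on stand-alone contigs between 0.3 and 1.2 FPKM, searching log2 ratios up to 1.5 in size. Alternatives changed the pseudocount, filter, scaling, limits, windows and unit. Software was matplotlib 3.10.9, scipy 1.17.1, pandas 2.3.3 and numpy 2.4.6 under Python 3.11.15.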

Additional observations from a re-analysis of the deposited data

Results flagged for a closer look

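In 4 of the 63 contigs the single LmLC pair went the other way from LmHC, lower at 24 h than at 0 h while LmHC was higher; the difference was not tested. They were CL3937.Contig4_All, with a log2 ratio in LmLC of -0.32, Unigene31514_All with -0.07, CL658.Contig1_All with -0.03 and CL3737.Contig4_All with -0.03. In each the rule held LmLC within 0.5, and in CL3937.Contig4_All the value rests on 0.25 FPKM at 0 h. The others were nearly flat in LmLC: Unigene31514_All went from 1.62 to 1.50 FPKM, CL658.Contig1_All from 1.00 to 0.96 FPKM and CL3737.Contig4_All from 1.58 to 1.53 FPKM. Those changes were smaller than the move of the median LmLC log2 ratio under median-of-ratios scaling, from -0.27 to 0.07.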

How the results depend on the processing

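Beyond what each setting does by construction, the cause of a shift was not tested. The 63 LmHC-only and 308 LmLC-only contigs became 20 and 295 when 5 was added before the log, 69 and 147 when 0.1 was added, 235 and 893 with a minimum mean of 1 FPKM, 701 and 1863 with no filter, 11 and 92 with a minimum mean of 5 FPKM, 105 and 329 with median-of-ratios scaling, 298 and 522 with a limit of 1, 23 and 237 with a limit of 2, 16 and 132 with windows of 0.25, 451 and 791 with windows of 1, and 37 and 183 with clusters summed. Scaling to the same column total gave 68 and 302 and kept all of the 63. LmLC-only contigs were the more numerous in all 12 alternatives, by 1.752 to 14.75 times. Membership shifted as well as the count. Of the 63, adding 0.1 kept 26 (26 left the LmLC window and 22 the 0 h window). Adding 5 kept 6 (57 missed the LmHC limit). Median-of-ratios scaling, which moved the median log2 ratio from -0.35 to 0.04 in LmHC and from -0.27 to 0.07 in LmLC, kept 38. The looser filters, limit and windows kept all 63 by construction. Kept with 0.1 added and under both scalings were 22, and 6 of these also with 5 added, all 6 listed at 0 in the other 3 libraries. With clusters summed, 4 of the 33 clusters met the rule. Partners and their sums were recounted only under the alternatives for pseudocount, filter and scaling, not for limits, windows or summed clusters. Over those alternatives, partners at least 2-fold higher were 41.8% (no filter) to 69.9% (median-of-ratios scaling) in LmHC. In LmLC they were 25.0% (3 of 12, minimum mean of 5 FPKM) to 77.8% (5 added). Partner sums at least 2-fold higher were 53.0% (no filter) to 100% in LmHC and 20.0% (1 of 5 clusters, minimum mean of 5 FPKM) to 100% in LmLC, both upper values over 5 clusters with 5 added. No replicate could be left out. No paired analysis was possible because each group had 1 library.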
